A study of Mus musculus with 12 samples.

Results

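Liver of mice made diabetic with streptozotocin (STZ, a toxin of the insulin-producing beta cells) and then given MENS was compared with liver of untreated control mice. The comparison used 4 of the 6 liver samples of the study, chosen by their labels: 2 control samples and 2 STZ+MENS samples, each run on 2 arrays, so 8 of the 12 arrays. The remaining 2 samples came from STZ mice without MENS and serve here as a reference. The labels do not expand the name MENS, and say that the treatment lasted 1 h on each of 5 days a week for 6 weeks and came from a printed circuit board run by the device. All mice are labelled 8 weeks old, without saying whether this was the age at the start or at sampling. The labels give the controls as not treated and do not speak of a sham board, and neither the strain, the sex nor the STZ dose is given in the sources used here. STZ+MENS and control therefore differ in both the diabetes and the treatment, which cannot be told apart in this comparison, and each STZ value below shares its control samples with the STZ+MENS value beside it. Whether a sample stands for a single animal is not stated, and a p-value therefore measures only the spread between these samples, which may be technical.

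Loss of insulin turns the liver from glucose storage and fat synthesis towards glucose output and fat burning. Sterol and fatty acid synthesis in the liver are driven by the SREBP factors, fatty acid oxidation by PPAR alpha, and both respond to insulin, feeding and glucocorticoids. Chaperones fold new and damaged proteins, those of the cytosol under the heat shock factor HSF1 and those of the endoplasmic reticulum under the unfolded protein response. Metallothioneins are small cysteine-rich proteins that bind zinc and copper, and their genes respond to metals, glucocorticoids and cytokines.

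The values are log2 of the probe intensity plus 50, averaged over the 2 arrays of a sample, with the brightest probe standing for a gene. A difference of 1 is 2-fold on this scale, and the scale understates differences of dim genes. Array medians lay between 768.89 and 770.33 in all 12 arrays. Arrays of the same sample correlated at 0.986 to 0.996 over all genes, and control arrays correlated with STZ+MENS arrays at 0.970 to 0.981. The 2 STZ+MENS samples differed from each other more than the 2 controls did: the median SD between samples was 0.153 in STZ+MENS and 0.127 in control. The highest value was 19.13 on every array. The hepatocyte markers Alb, Ttr, Apoa1, Ahsg and Trf lay between 18.36 and 19.04 in all 4 samples. That is so close to the top that a 2-fold rise could not show, although a smaller rise could in the lower of these markers. A fall could show: Tat of the same list was at 18.22 and 17.88 in control and 16.61 and 16.91 in STZ+MENS. Of the 12 measured markers of that list 4 (Tat, Apob, Cps1 and Fga) were lower in STZ+MENS at an unadjusted limma p under 0.05 and 0 were higher, and 10 of the 12 differences were below 0.

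Only 1 of 17742 genes, 0.00564%, passed an adjusted p of 0.05 in STZ+MENS against control (limma, Benjamini-Hochberg). This was Top2b, a DNA topoisomerase, at 3.21 ± 0.15 (SE) higher with an adjusted p of 0.0087. Its control value rests on arrays that disagree: the first arrays of the 2 controls read intensities of -7.06 and -11.33, their second arrays 4661.83 and 3818.61, and the 4 STZ+MENS arrays 3337.72 to 5332.31. When the 73 genes whose arrays of 1 sample lay over 3 apart were left out, limma called 0 genes. The next lowest adjusted p was 0.094, for Mt1, so every other difference below is described at an unadjusted p and none of them passed over all genes.

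At an unadjusted limma p under 0.05, 1565 genes (8.82%) were higher in STZ+MENS than in control and 1628 (9.18%) were lower. These shares of all genes are the background for every count of list members below. Differences of 2-fold or more at that p numbered 180 higher (1.01%) and 334 lower (1.88%). The 2 samples of each group did not overlap in 8623 genes (48.6%), so a gene without overlap is the common case here. STZ+MENS sample 1 lay below sample 2 in 49.3% of all genes, in 69.2% of the genes lower at p under 0.05, and in 84.1% of those lower by 2-fold or more. Without control sample 1 the counts were 991 higher and 812 lower, and the 2-fold split turned to 289 higher and 193 lower. Without STZ+MENS sample 2 the 2-fold count went from 514 to 1039 genes, and without STZ+MENS sample 1 its split was 314 higher and 284 lower.

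**Figure D1:**
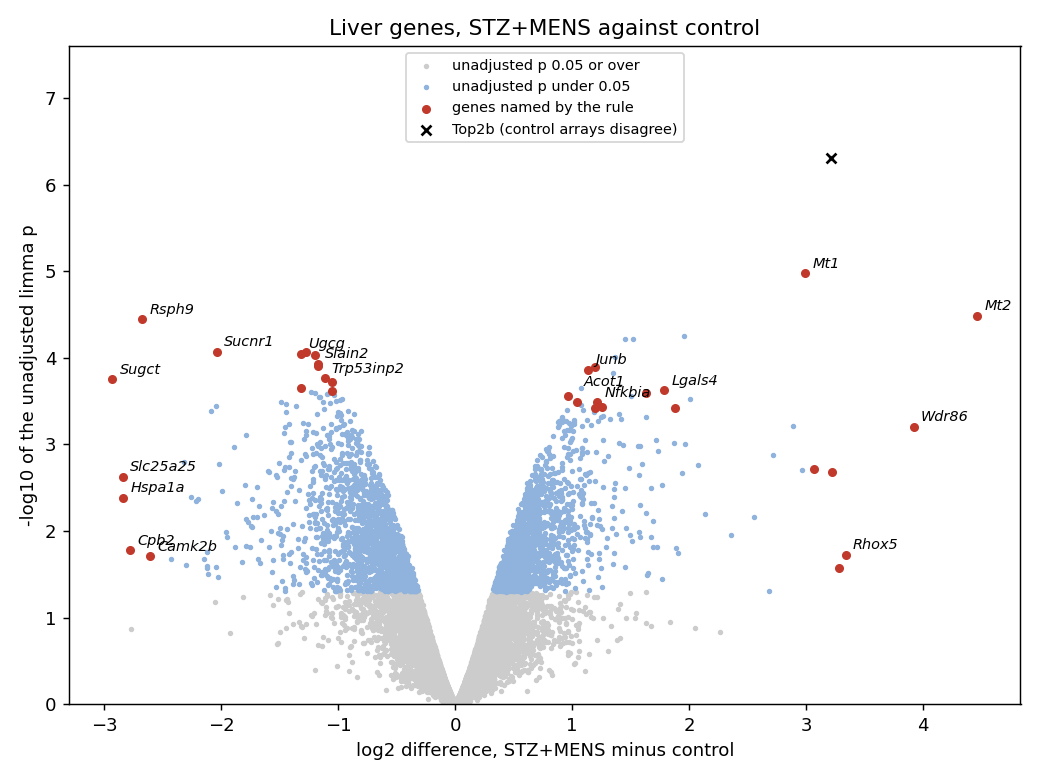
Each point is 1 of 17742 liver genes, with the log2 difference of STZ+MENS minus control on the x axis and minus log10 of the unadjusted limma p on the y axis; red points are genes named by rule. Mt2 and Mt1 stand at 4.46 and 2.99 on the right, Sugct and Rsph9 at -2.93 and -2.68 on the left, and the cross marks Top2b, whose control arrays disagree.

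The 2 metallothionein genes were among the clearest differences from control. Mt2 stood at 10.22 and 11.57 in the controls and at 15.23 and 15.48 in STZ+MENS, 4.46 ± 0.42 (SE) or 22-fold higher. Mt1 stood at 14.29 and 14.54 in the controls and at 17.11 and 17.71 in STZ+MENS, 2.99 ± 0.23 or 7.97-fold higher. Both genes were far above control in both STZ+MENS samples, and the controls differed from each other by more in Mt2 than in Mt1. Against the STZ samples the pair behaved differently: Mt2 differed by -0.10, with a 95% interval of -1.12 to 0.92, and Mt1 was a further 0.98 ± 0.23 above STZ, with an interval of 0.42 to 1.55. The STZ samples themselves read 15.29 and 15.62 for Mt2 and 16.33 and 16.53 for Mt1.

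Of the zinc transporters on the same list, Slc30a1, Slc39a8 and Slc39a4 were lower in STZ+MENS at an unadjusted p under 0.05, and Slc30a10, Slc39a5 and Slc39a14 did not pass, at -0.25, -0.04 and 0.25. All 9 genes of the metallothionein and zinc list were measured, of which 2 were higher and 3 lower at an unadjusted p under 0.05, with a median of -0.25 against 0.02 over all genes. Slc30a1, which exports zinc across the cell membrane, stood at 13.73 and 13.51 in control and 12.80 and 12.89 in STZ+MENS, 0.78 lower (difference -0.78 ± 0.16). Slc39a8, an importer of zinc and manganese, was at 9.49 and 9.55 in control and 8.78 and 8.73 in STZ+MENS (-0.76 ± 0.18). In STZ Slc30a1 differed from control by -0.06, while Slc39a8 was at 10.15 and 9.72, above both controls by a mean of 0.42. Slc39a4, another zinc importer, differed by -0.62 ± 0.15 in STZ+MENS and by -1.41 in STZ. Mtf1, the factor that senses zinc and acts on metallothionein genes, differed by -0.27 ± 0.24 and did not pass.

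The bases upstream of Mt2 show the metal response elements through which that factor acts. The stretch is the 150 bases before the RefSeq start on GRCm38.p6, chr8:94172468-94172617, plus strand, with matches to TGCACNC or TGCGCNC on either strand in capitals.
Mt2: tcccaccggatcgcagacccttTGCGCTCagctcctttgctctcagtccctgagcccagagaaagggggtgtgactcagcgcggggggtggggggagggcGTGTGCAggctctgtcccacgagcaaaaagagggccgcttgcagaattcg
This motif is in 25.7% of all 300-base promoter windows of the RefSeq table (250 bases before a start to 50 after it) and in 6 of the 7 measured genes of the zinc list that have a window, Slc30a1 and Slc39a8 among them. A match therefore does not separate the members that were higher from those that were lower.

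Several further genes stood away from control in STZ+MENS at about the level they had in STZ. Rsph9, a protein of the radial spokes of motile cilia, was at 13.37 and 14.01 in control, no higher than 11.03 in either STZ+MENS sample and at 10.96 and 10.52 in STZ, a difference from control of -2.68 ± 0.26. Sucnr1, the cell-surface receptor for succinate, was at 12.36 and 12.55 in control and at 10.10 and 10.72 in STZ+MENS, or -2.04 ± 0.23. For these 2 genes the differences from STZ were 0.27 (95% interval -0.35 to 0.89) and -0.31 (-0.86 to 0.24). That no control sample reached into the STZ+MENS range of either gene follows from the rule by which they were named. Zfp36l3, an RNA-binding protein, differed from control by -1.28 ± 0.14 and from STZ by -0.11 (-0.45 to 0.24), and its second probe differed from control by only -0.26. Trp53inp2, which takes part in autophagy, stood at 15.68 and 15.74 in control and 14.68 and 14.51 in STZ+MENS, -1.12 ± 0.14, and differed from STZ by -0.26 (-0.60 to 0.08). Rpgr, a gene of the ciliary base, differed from control by -1.17 ± 0.14, but 1 of its 4 probes had the other sign, at 0.37.

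On the higher side, regulators of signalling, transcription and splicing also differed less from STZ than from control. Nfkbia encodes the inhibitor that holds NF-kappaB in the cytosol and is itself an NF-kappaB target. It was at 14.87 and 15.16 in control and 16.10 and 16.35 in STZ+MENS, 1.21 ± 0.17 higher, and differed from STZ by 0.09 (-0.32 to 0.50). Srrm4, a splicing factor best known from neurons, was 1.25 ± 0.18 above control and -0.06 (-0.50 to 0.38) from STZ. Egr1, an immediate early transcription factor, was at 11.23 and 11.15 in control, 13.31 and 14.49 in STZ+MENS and 13.30 and 14.48 in STZ, 2.71 ± 0.49 above control and 0.01 (-1.18 to 1.20) from STZ. The spread between the treated samples was thus as wide as between the STZ samples. Trib3, a pseudokinase that binds AKT, was 2.13 ± 0.53 above control and -0.53 (-1.81 to 0.76) from STZ. Each of these intervals spans 0 and leaves room for a shift of either sign. Those of Egr1 and Trib3 are too wide to place these genes at the STZ level.

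**Figure D2:**
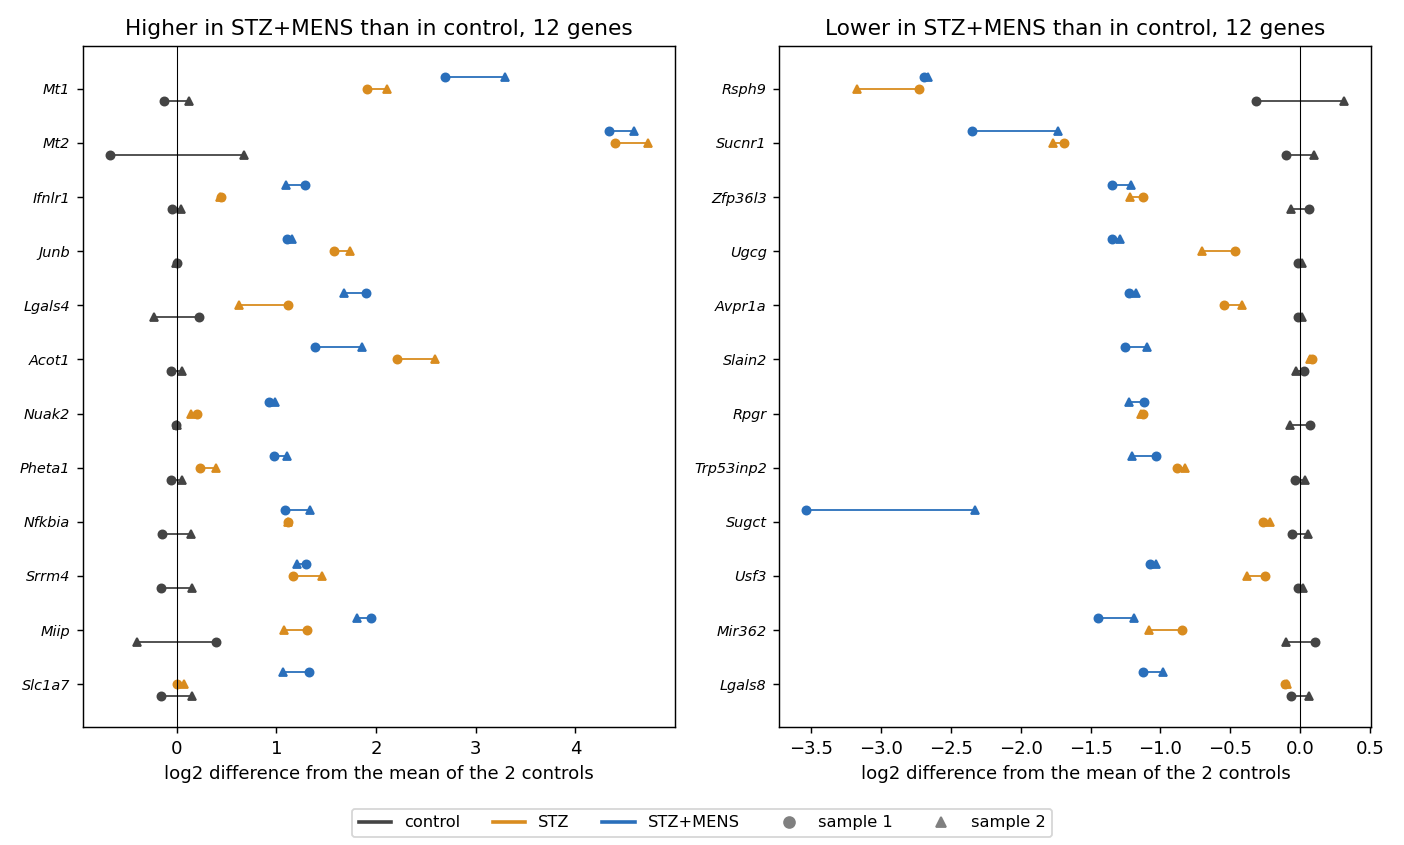
Log2 difference from the mean of the 2 controls (x axis) for the 12 genes of smallest p in each direction, with control in grey, STZ in orange and STZ+MENS in blue; circles are sample 1 and triangles sample 2 of each group, joined by a line that shows their spread. Mt2, Nfkbia, Srrm4, Rsph9, Zfp36l3 and Rpgr have STZ and STZ+MENS close together, whereas Slain2, Sugct, Nuak2, Slc1a7 and Lgals8 have STZ near 0 and STZ+MENS apart.

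A second set of genes lay between control and STZ, above or below control but less far than without MENS. Junb, a subunit of the AP-1 transcription factor, was at 12.03 and 12.02 in control, 13.13 and 13.18 in STZ+MENS and 13.60 and 13.76 in STZ. Its difference from control was 1.13 ± 0.14 and from STZ -0.53 ± 0.14, with a 95% interval of -0.86 to -0.20. Its second probe differed from control by 0.66. Acot1, a cytosolic thioesterase that splits acyl-CoA and a known PPAR alpha target, was at 13.03 and 13.15 in control and 14.48 and 14.95 in STZ+MENS, 1.63 ± 0.22 higher. It differed from STZ by -0.78 (-1.31 to -0.25). In both genes STZ lay apart from the other groups, whereas the separation of control from STZ+MENS was a condition for naming them. The share of all genes with 3 separate groups was not counted.

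Id1, Id3 and Smad7, targets of bone morphogenetic protein signalling, showed the same order. Of 15 measured genes of the BMP, Id and hepcidin list, 5 were higher (33.3%) and 0 lower at an unadjusted limma p under 0.05. The shares over all genes were 8.82% and 9.18%. The median difference was 0.10, and that of STZ against control was 0.32. The 5 numbered 3 without control sample 1, and 2 were lower without STZ+MENS sample 2. Id1, an inhibitor of helix-loop-helix transcription factors, was at 10.96 and 10.76 in control, 12.26 and 12.73 in STZ+MENS and 14.12 and 13.59 in STZ. This placed it 1.63 ± 0.24 above control and 1.36 below STZ (difference -1.36, 95% interval -1.96 to -0.77). Its relative Id3 was 0.76 ± 0.14 above control and -1.09 (-1.44 to -0.73) from STZ. Smad7, which inhibits receptor signalling of this pathway, was 0.71 ± 0.20 above control and -1.14 (-1.63 to -0.64) from STZ. Id2 and Hjv, the hemojuvelin coreceptor, did not follow that order: Id2 was 0.74 ± 0.25 above control and -0.03 (-0.64 to 0.58) from STZ, and Hjv was 0.54 ± 0.13 above control where STZ was at -0.30.

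The p53 list had its best-known member, Cdkn1a, far above control. Cdkn1a encodes the cell cycle inhibitor p21. It was at 10.81 and 10.17 in control, 12.51 and 14.39 in STZ+MENS and 14.95 and 14.86 in STZ, 2.96 ± 0.58 above control and -1.46 (-2.86 to -0.05) from STZ. STZ+MENS sample 2 was close to the STZ level and sample 1 about midway. Of 15 measured genes on the list, 4 were higher (26.7%) and 1 was lower (6.67%) at an unadjusted p under 0.05. At that p 8.82% of all genes were higher and 9.18% lower. The lower member was Trp53inp2, described above for its part in autophagy. The median of the list was 0.30. Mdm2, the ligase that degrades p53, was 1.21 ± 0.21 above control and 0.23 (-0.29 to 0.75) from STZ, and Gadd45a, a stress sensor, was 0.90 ± 0.22 above control. Bbc3, which encodes the cell death factor PUMA, was at 11.37 and 11.15 in control, 12.51 and 12.27 in STZ+MENS and 11.35 and 11.13 in STZ, so the treated samples stood apart on this probe, and its second probe differed from control by -0.03. Leaving out STZ+MENS sample 1 gave 8 members higher, with a median of 0.78, and leaving out sample 2 gave 4, with a median of -0.06.

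By median, the chaperones were furthest from control of the 44 lists with at least 5 measured members. Of 24 genes on the heat shock and chaperone list, 20 were measured, of which 15 were lower and 1 higher at an unadjusted p under 0.05, 10 of the 15 by 2-fold or more. Lower members were thus 75.0% of those measured, where 9.18% of all genes were lower. Dnaja1, counted among them at -0.90, had a second probe of the other sign, at 0.07. The median difference was -1.14, against 0.02 over all genes and -0.05 for the same list in STZ against control. As a mean over the list, relative to the control mean, the controls were at 0.28 and -0.28, STZ at 0.16 and -0.38, and STZ+MENS at -1.24 and -0.86. Both STZ+MENS samples were below all 4 other samples, and sample 1 was below sample 2 in 15 of the 20 genes. The count of lower members was 7 without control sample 1, 12 without control sample 2, and 11 and 13 with STZ+MENS sample 1 or 2 left out, with medians of -0.84, -1.29, -0.72 and -1.28.

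Among the members, Hspa1a, the main stress-inducible HSP70, was at 13.96 and 12.57 in control, 10.06 and 10.79 in STZ+MENS and 12.18 and 10.62 in STZ. Its difference from control was -2.84 ± 0.64 or 7.15-fold, and the difference from STZ of -0.98 had an interval of -2.53 to 0.58. Dnajb1, the HSP40 that works with it, was at 15.76 and 14.33 in control and 12.63 and 13.04 in STZ+MENS, -2.21 ± 0.51. In both genes control sample 1 was above control sample 2 by over 1. Dnajb4, a related HSP40, was steadier, at 13.56 and 12.97 in control and 11.85 and 11.87 in STZ+MENS, -1.40 ± 0.30, and differed from STZ by -1.27 (-2.00 to -0.55). Hspa4l, a nucleotide exchange factor of the HSP110 family, was -1.37 ± 0.32 from control and -1.36 (-2.12 to -0.59) from STZ. Hspb1, the small heat shock protein HSP27, was the one member higher, at 14.60 and 14.65 in control and 15.71 and 15.45 in STZ+MENS, 0.95 ± 0.17. Hsf1 itself was not among the members that passed. Hspa1b, a close paralog of Hspa1a, was also lower, at -1.83 ± 0.61, and probes of such paralogs can share signal.

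The mitochondrial members were in the lower group too. Hspe1, the HSP10 partner of HSP60, is named here after its values were seen, for its promoter. It was at 13.63 and 13.41 in control, 10.89 and 12.56 in STZ+MENS and 14.20 and 13.48 in STZ, -1.79 ± 0.54 from control and -2.11 (-3.42 to -0.81) from STZ. The 2 STZ+MENS samples were further apart than in the HSP40 genes, with sample 1 the lower.

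Stretches of 2 of these promoters show heat shock elements, the inverted repeats of GAA that HSF1 binds. For Hspa1a the 150 bases before the RefSeq start are given (GRCm38.p6, chr17:34972157-34972306, minus strand), with a match to GAANNTTC or TTCNNGAA in capitals. For Hspe1 a stretch of 30 bases is given (chr1:55088053-55088082, plus strand), which also lies within the neighbouring gene Hspd1, with overlapping matches to the longer form GAANNTTCNNGAA or TTCNNGAANNTTC in capitals, from base -89 to base -72 counted from the start.
Hspa1a: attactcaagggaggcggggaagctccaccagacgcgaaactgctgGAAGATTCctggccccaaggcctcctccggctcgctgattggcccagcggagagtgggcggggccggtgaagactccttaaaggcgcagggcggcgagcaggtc
Hspe1: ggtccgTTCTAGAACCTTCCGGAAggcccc
The short form was in 12 of the 17 measured members with a RefSeq window and in 15.1% of all windows. The long form, each match of which also holds the short one, was in 3 of the 17, Chordc1, Hspe1 and Hsph1, and in 0.603% of all windows. Of the 17, 13 were lower in STZ+MENS at an unadjusted p under 0.05. The short form was in 9 of these 13 (69.2%), against 70.6% of the 17, and all 3 genes with the long form were among the 13.

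Genes of the endoplasmic reticulum showed a smaller difference in the same direction. Of 23 genes on that list 21 were measured. At an unadjusted limma p under 0.05, 0 of them were higher and 10 lower (47.6%), where 8.82% and 9.18% of all genes were. The median was -0.46, and that of STZ against control was -0.12. Mean values over the list were -0.63 and -0.41 in STZ+MENS, below both controls at 0.05 and -0.05. Dnajb9, a cofactor of the lumenal HSP70 and a target of the unfolded protein response, was at 13.31 and 13.11 in control, 10.24 and 11.53 in STZ+MENS and 13.10 and 12.45 in STZ, -2.32 ± 0.43 from control. Hspa5, that lumenal HSP70 itself (BiP), was at 16.63 and 16.39 in control and 14.79 and 15.72 in STZ+MENS, -1.25 ± 0.31, and differed from STZ by -1.19 (-1.95 to -0.44). Dnajc3, another lumenal cofactor, was -0.61 ± 0.16 from control and -1.15 (-1.53 to -0.77) from STZ, where it was above control by 0.54. Sdf2l1 did not follow that order: it was -0.75 ± 0.14 from control and 0.10 (-0.24 to 0.45) from STZ. Creld2 was placed likewise, at -0.43 from control, where it did not pass, and 0.21 from STZ. Leaving out any 1 of the 4 samples gave 7 to 11 lower members.

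Hspa5 carries the element of the unfolded protein response in its textbook form, a CCAAT box and CCACG spaced by 9 bases. The 150 bases before its start are shown with that element in capitals (GRCm38.p6, chr2:34771940-34772089, plus strand).
Hspa5: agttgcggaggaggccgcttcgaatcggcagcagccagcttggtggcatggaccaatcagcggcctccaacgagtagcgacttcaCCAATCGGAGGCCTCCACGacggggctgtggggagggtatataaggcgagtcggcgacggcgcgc
On either strand the element was in 7 of the 20 measured members with a window and in 0.119% of all windows. Those 7 were Calr, Canx, Creld2, Dnajc3, Hsp90b1, Hspa5 and Pdia6. Only Dnajc3, Hsp90b1, Hspa5 and Pdia6 of them were lower at an unadjusted p under 0.05.

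**Figure D3:**
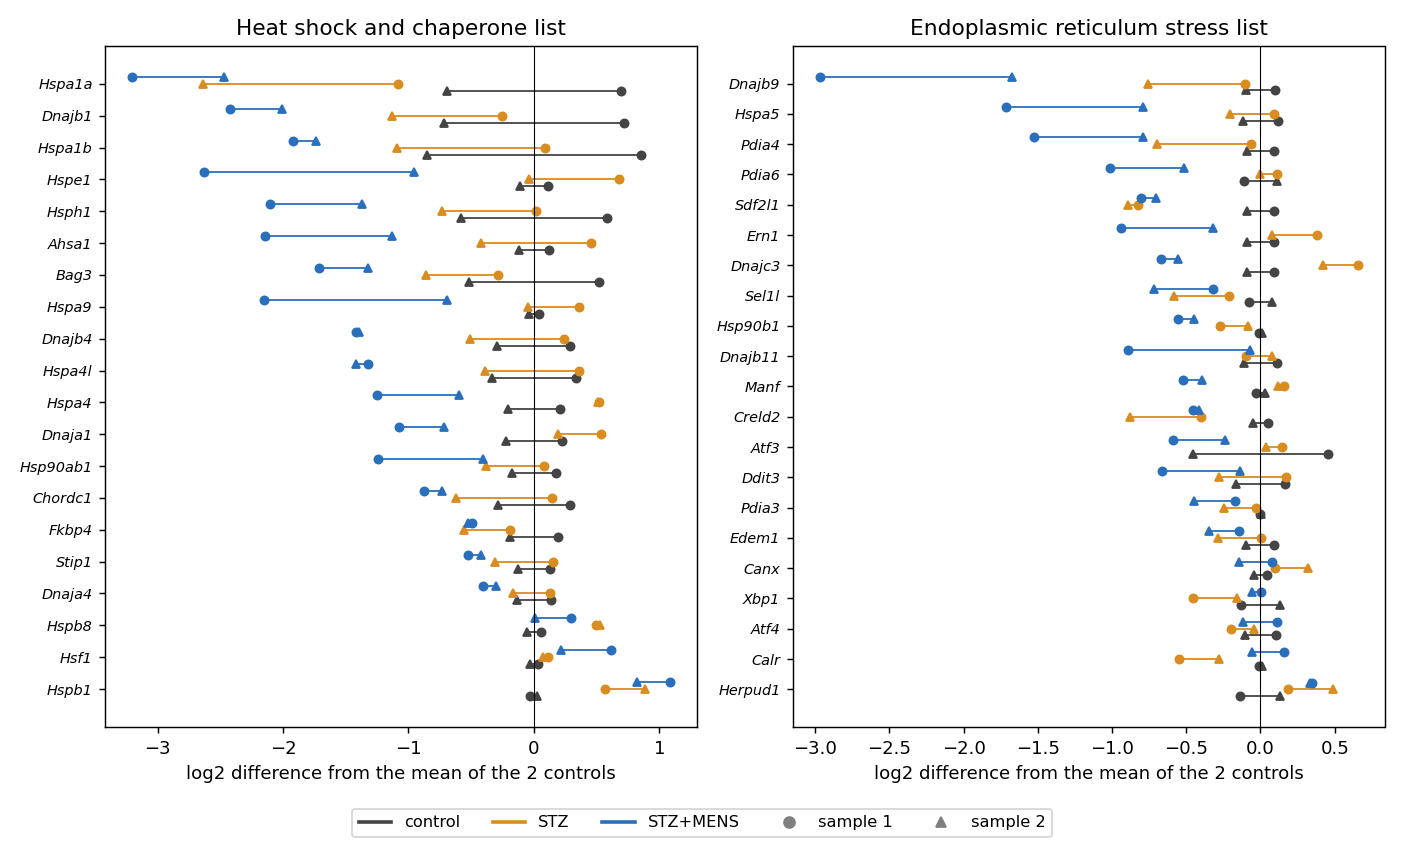
Log2 difference from the mean of the 2 controls (x axis) for every measured gene of the heat shock and chaperone list (left, 20 genes) and the endoplasmic reticulum stress list (right, 21 genes), in the colours and symbols of the plot of named genes. Most STZ samples lie around 0 with the controls, while the STZ+MENS samples lie to the left in most genes and furthest in Hspa1a, Dnajb1 and Dnajb9, with Hspb1 the clear exception at 0.95.

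Autophagy and proteasome genes had medians closer to 0. Of 22 measured autophagy genes, 6 were lower and 1 higher at an unadjusted p under 0.05, with a median of -0.15. Atg3, which conjugates LC3 to lipid, was at 13.32 and 12.93 in control and 11.38 and 12.29 in STZ+MENS, -1.29 ± 0.37, and Sqstm1, the cargo receptor p62, was at 14.30 and 14.22 in control and 12.28 and 13.63 in STZ+MENS, -1.30 ± 0.43. Atg7, the enzyme that activates LC3, was 0.64 ± 0.16 higher. Without STZ+MENS sample 2 the higher members were 2. The 6 lower members became 1 with either control sample left out, so this count rests on having both. Of 24 measured proteasome genes, 3 were lower and 2 higher, with a median of -0.13. Psmb7, a catalytic subunit, was at 12.50 and 12.29 in control and 8.80 and 11.14 in STZ+MENS, and the lower count by limma was 7 with STZ+MENS sample 2 left out and 0 with any of the other 3 left out. The higher count was 1 without control sample 1 or STZ+MENS sample 2, and by limma 0 with either of the others left out.

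In the respiratory chain 7 of 25 measured genes were lower (28%) and 3 higher (12%), where 9.18% and 8.82% of all genes were. The median was -0.19. Sdha, the flavoprotein of complex II, was at 16.41 and 16.18 in control and 14.50 and 15.33 in STZ+MENS, -1.38 ± 0.28. Ndufb5 and Ndufs3, both of complex I, differed by -1.88 ± 0.57 and -1.66 ± 0.48. Uqcrc1 of complex III and Ndufv1 of complex I were higher, by 0.55 ± 0.18 and 0.49 ± 0.18. STZ+MENS sample 1 was below sample 2 in 22 of the 25 genes, and without it 3 were lower and 2 higher. Lower members numbered 3 without control sample 1 and 4 without control sample 2, and the higher ones 1, 0 (limma) and 1 without control sample 1, control sample 2 or STZ+MENS sample 2.

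Sterol synthesis was below control in part of its genes and mostly nearer to it than in STZ. Of 17 measured genes, 4 were lower and 0 higher at an unadjusted limma p under 0.05, with a median of -0.38 in STZ+MENS and -1.09 in STZ against the same controls. The list means were -0.47 and -0.42 in STZ+MENS and -0.95 and -1.52 in STZ. Sqle, squalene epoxidase, was at 14.01 and 13.33 in control, 12.54 and 12.51 in STZ+MENS and 11.90 and 11.03 in STZ, -1.15 ± 0.34 from control and 1.06 (0.24 to 1.88) from STZ. Nsdhl, a sterol dehydrogenase, was -0.56 ± 0.18 from control and 1.11 (0.67 to 1.55) from STZ. Mvd, mevalonate diphosphate decarboxylase, was near control: it was at 14.15 and 13.64 in control, 14.11 and 13.22 in STZ+MENS and 11.03 and 10.67 in STZ, a difference of -0.23 ± 0.33 with a 95% interval of -1.04 to 0.58. Tm7sf2, a sterol reductase, broke the order at -1.56 ± 0.51 in STZ+MENS and -0.81 in STZ. Without control sample 1 limma put 0 of the 17 past that p, and without control sample 2 it was 2.

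Fatty acid synthesis did not give 1 answer for the 2 treated samples. Over 18 measured genes the list mean was 0.05 in STZ+MENS sample 1 and -0.82 in sample 2, with STZ at -0.87 and -1.06. Sample 1 was thus at the control level and sample 2 at that of STZ. Scd1, the desaturase that makes oleate, was at 19.10 and 19.13 in control and at 18.88 and 16.58 in STZ+MENS. It held the highest value of the array on 3 of the 4 control arrays and 1 of the 4 STZ+MENS arrays, so its fitted difference of -1.39 ± 0.76 is taken from a control level that could not read higher. Fasn, fatty acid synthase, was at 12.23 and 11.12 in control and 11.65 and 9.44 in STZ+MENS, -1.13 ± 0.72, and Acaca, the rate-limiting carboxylase, was at 13.52 and 13.18 against 13.16 and 12.65, -0.44 ± 0.22. None of these 3 passed against control. Over the list 1 gene was lower, Gpam at -0.75 ± 0.26, and 1 higher, Acss2 at 0.40 ± 0.16, and 9 were lower without STZ+MENS sample 1, against 0 to 2 without any other sample. Srebf1 and Mlxipl, the transcription factors of this programme, differed from control by 0.01 ± 0.21 and 0.39 ± 0.22.

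Fat oxidation genes were split. Of 22 measured genes, 4 were higher (18.2%) and 3 lower (13.6%), where 8.82% and 9.18% of all genes were. The median was -0.01 in STZ+MENS and 0.49 in STZ. Acot1 led the higher ones, followed by Acot2 at 0.52 ± 0.21, Cpt2 at 0.48 ± 0.16 and Cpt1a, the gate to mitochondrial oxidation, at 0.44 ± 0.16. The second probe of Cpt1a gave 0.01. Acot1 and Acot2 are close paralogs, and their probes can share signal. Ehhadh, a peroxisomal oxidation enzyme, was at 14.65 and 14.30 in control, 13.07 and 13.58 in STZ+MENS and 15.59 and 15.34 in STZ, so the treated samples were below both other groups. It differed by -1.15 ± 0.23 from control and -2.14 (-2.70 to -1.58) from STZ. Etfdh, which passes electrons from oxidation to ubiquinone, was -1.95 ± 0.55 from control, and Plin2, a coat protein of lipid droplets, was -1.27 ± 0.43. The counts were 2 higher and 1 lower without control sample 1, and 2 and 2 without control sample 2.

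Genes of glucose output were split. Over the 15 measured genes of the list 3 were higher (20.0%) and 2 lower (13.3%) at an unadjusted p under 0.05, where 8.82% and 9.18% of all genes were. With STZ+MENS sample 1 left out 5 were higher, and with control sample 1 left out 1 was lower. Pck1, which commits oxaloacetate to gluconeogenesis, was at 18.57 and 18.61 in control and 18.61 and 18.65 in STZ+MENS, a difference of 0.04 ± 0.13 with a 95% interval of -0.28 to 0.36, and its probe ranked 6 to 29 from the top of the array. G6pc, the phosphatase that releases glucose, was at 14.18 and 13.22 in control, 12.96 and 13.08 in STZ+MENS and 15.68 and 14.86 in STZ, -0.68 ± 0.38 from control and -2.25 (-3.17 to -1.32) from STZ. Fbp1 separated the treated samples, at 15.54 and 17.58 against 17.14 and 16.89 in control. Slc37a4, the transporter that feeds G6pc, was 0.63 ± 0.14 higher, Pcx, pyruvate carboxylase, 0.53 ± 0.14 higher and Sds, serine dehydratase, 0.73 ± 0.15 higher. Tat, tyrosine aminotransferase, was at 18.22 and 17.88 in control, 16.61 and 16.91 in STZ+MENS and 18.19 and 17.68 in STZ, -1.29 ± 0.23.

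The glucokinase regulator Gckr was 0.62 ± 0.18 above control, one of 2 higher and 2 lower among 13 measured glycolysis and glycogen genes. By limma 0 were higher without control sample 2 or STZ+MENS sample 1, and 1 was lower without control sample 1 or STZ+MENS sample 1. Gbe1, the glycogen branching enzyme, was at 15.19 and 15.12 in control and 14.41 and 14.68 in STZ+MENS, -0.61 ± 0.15, and lay above control in STZ by 0.56. In the insulin and IGF list 2 of 22 measured genes were higher and 1 lower, counts that became 4 and 3 without STZ+MENS sample 1. Without control sample 1 they were 1 and 2, without control sample 2 they were 2 and 2, and without STZ+MENS sample 2 they were 1 and 1. Insr, the insulin receptor, differed by 0.03 ± 0.14 (95% interval -0.30 to 0.36), Irs1 by -0.16 ± 0.21 and Irs2 by -0.12 ± 0.25. Pik3r1, the regulatory subunit of the kinase downstream of them, was at 14.35 and 14.40 in control and 13.50 and 13.63 in STZ+MENS, -0.81 ± 0.19. Igfbp2, a circulating IGF-binding protein, was 0.65 ± 0.25 higher and -0.06 (-0.66 to 0.54) from STZ. Igf1 had a bright probe at -0.42 ± 0.22 and a dimmer one at -2.09.

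**Figure D4:**
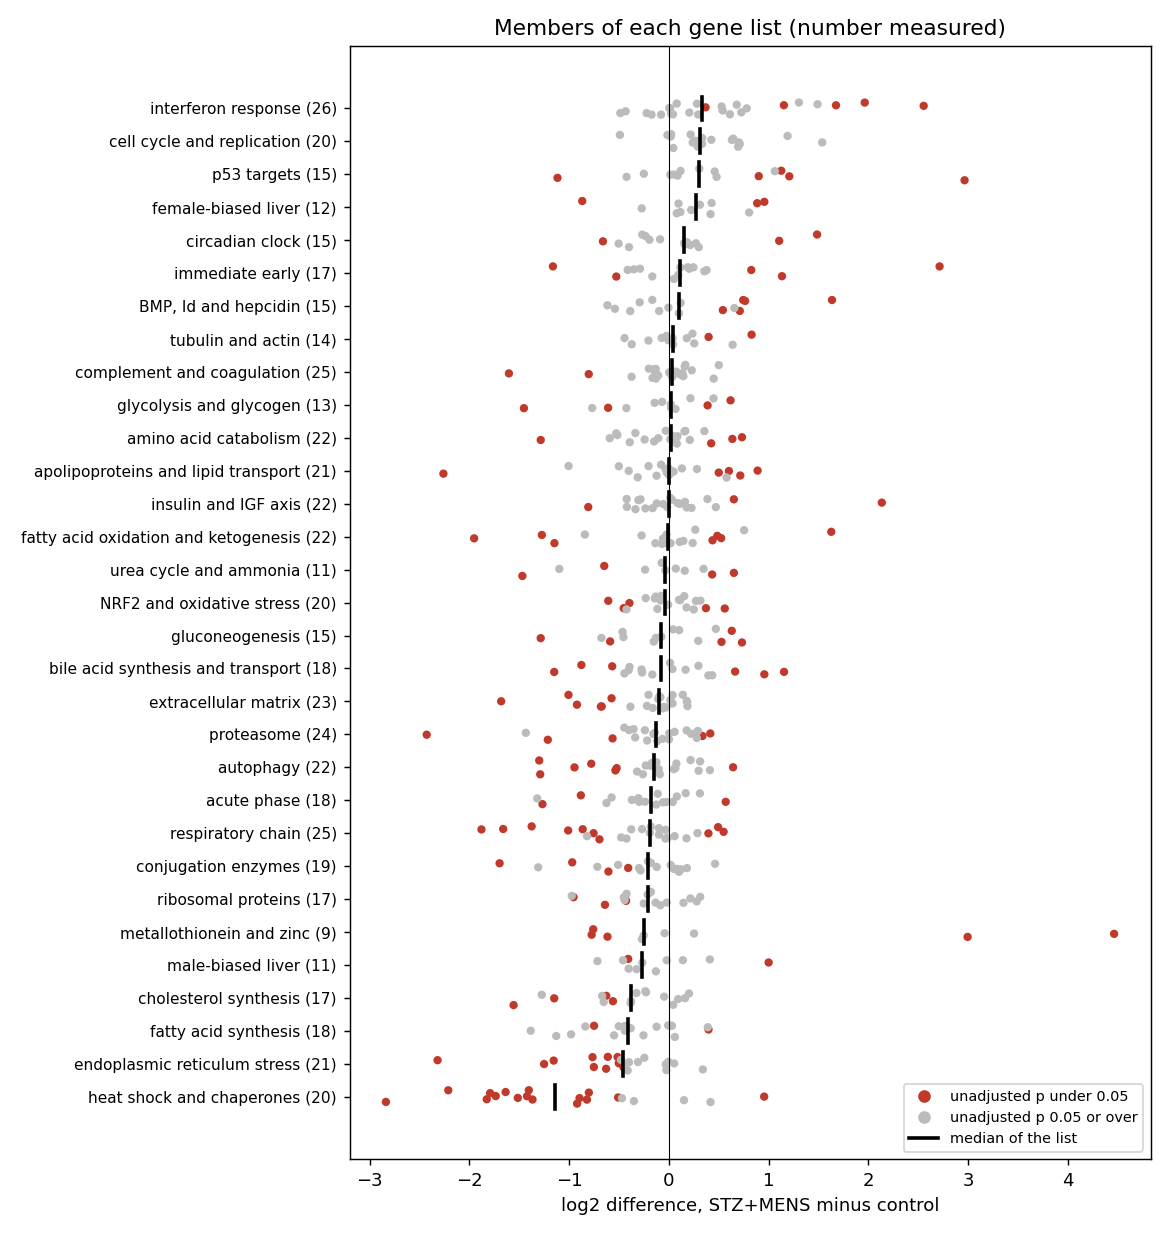
Each point is a measured gene of a list named on the y axis, with the log2 difference of STZ+MENS minus control on the x axis; red marks an unadjusted limma p under 0.05 and the black bar the median of the list. The heat shock and chaperone list has a median of -1.14 and the endoplasmic reticulum list one of -0.46, and the interferon list at 0.33 has the highest median.

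Interferon genes were higher in a few members and unequally in the 2 samples. Of 26 measured genes, 5 were higher (19.2%) and 0 lower at an unadjusted limma p under 0.05, where 8.82% and 9.18% of all genes were. The median was 0.33 in STZ+MENS and 0.53 in STZ. The list mean was 0.11 in STZ+MENS sample 1 and 0.96 in sample 2, with the controls at -0.20 and 0.20. Mx2, an antiviral GTPase, was at 11.85 and 12.43 in control and 13.75 and 14.45 in STZ+MENS, 1.96 ± 0.34, and its paralog Mx1 was 1.67 ± 0.36 above control and 0.00 (-0.87 to 0.88) from STZ. Probes of such close paralogs can share signal. Rsad2, which encodes viperin, was 1.15 ± 0.32 above control. Irf1 had the largest difference of the list, 2.55 ± 0.64. Its arrays of 1 sample lay up to 2.53 apart, and its second probe differed by -0.17. Ifnlr1, the receptor of interferon lambda, is not on the list and was named by the rule. It was at 8.20 and 8.29 in control, 9.53 and 9.34 in STZ+MENS and 8.69 and 8.67 in STZ, 1.19 ± 0.14 above control. Leaving out STZ+MENS sample 1 gave 11 higher members and a median of 0.74, leaving out sample 2 gave 4 higher and 5 lower and a median of -0.08, and leaving out control sample 1 gave 3 higher.

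Cell cycle genes had a median of 0.31 over 20 measured members, with 0 higher and 0 lower at an unadjusted limma p under 0.05, and a median of 0.93 in STZ. The list mean was -0.07 in STZ+MENS sample 1 and 0.87 in sample 2, so the samples sat at the control and STZ levels respectively. Without sample 1, 11 of the 20 were higher, and without sample 2, 2 were lower. Without control sample 2, 1 was lower. Tubb2a, a beta tubulin, was at 12.45 and 12.61 in control, 12.59 and 12.45 in STZ+MENS and 15.05 and 14.47 in STZ, a difference from control of -0.01 with a 95% interval of -0.53 to 0.52.

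Among clock genes 2 of 15 measured were higher and 1 lower, with 0 lower (limma) without control sample 1 and 2 without control sample 2. Per1, a repressor of the clock that also responds to glucocorticoids, was at 12.74 and 13.05 in control and 14.16 and 13.84 in STZ+MENS, 1.11 ± 0.19, and Ciart, another repressor, was 1.48 ± 0.29 higher. Nr1d1, the nuclear receptor REV-ERB alpha, was -0.66 ± 0.20. The hour of sampling is not given in the sources used here, and its part in these values was not tested. In the immediate early list 3 of 17 measured genes were higher (Junb, Egr1 and Ier2) and 2 lower, or 1 lower without control sample 1 or STZ+MENS sample 1. The second probe of Ier2 differed by only 0.07. Fos, the AP-1 partner of Junb, was one of the lower ones, at 9.88 and 8.64 in control, 7.95 and 8.25 in STZ+MENS and 9.96 and 9.99 in STZ.

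Some genes stood apart from control in the treated samples while STZ did not. Sugct, a mitochondrial CoA transferase of glutarate breakdown, was at 12.51 and 12.62 in control, 9.03 and 10.24 in STZ+MENS and 12.31 and 12.35 in STZ, -2.93 ± 0.37 from control and -2.69 (-3.58 to -1.80) from STZ. Slain2, which promotes microtubule growth, was at 12.87 and 12.81 in control and 11.59 and 11.75 in STZ+MENS, -1.17 ± 0.14. Slc25a25, a calcium-regulated ATP carrier of mitochondria, was at 15.29 and 13.49 in control and 11.92 and 11.17 in STZ+MENS, -2.84 ± 0.57. The controls of the last gene were far apart, whereas Slain2 was tight in every group. Lgals8, a galectin that marks damaged endosomes, was -1.05 ± 0.14 from control and -0.95 (-1.29 to -0.61) from STZ. On the higher side Nuak2, a kinase related to AMPK, was at 13.15 and 13.16 in control, 14.09 and 14.15 in STZ+MENS and 13.36 and 13.30 in STZ, 0.96 ± 0.13. Slc1a7, a glutamate transporter, was 1.20 ± 0.17 above control and 1.16 (0.74 to 1.58) above STZ.

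Others lay beyond STZ on the same side of control. Lgals4, a galectin of epithelia, was at 13.37 and 12.92 in control, 14.26 and 13.77 in STZ and 15.04 and 14.82 in STZ+MENS, 1.79 ± 0.24 above control and 0.91 (0.34 to 1.49) above STZ. Ugcg, glucosylceramide synthase, was at 12.79 and 12.82 in control and 11.46 and 11.52 in STZ+MENS, -1.32 ± 0.15 from control and -0.73 (-1.09 to -0.37) from STZ. Avpr1a, the vasopressin receptor of hepatocytes, was -1.20 ± 0.13 from control and -0.72 (-1.05 to -0.39) from STZ. In these 3 genes STZ lay apart from both other groups, whereas the separation of control from STZ+MENS was a condition for naming them. Pheta1, Miip, Usf3 and Mir362 differed from control by 1.04, 1.88, -1.05 and -1.32. Mir362 was dim, at 8.39 and 8.18 in control and 6.84 and 7.09 in STZ+MENS, with a mean intensity of 149. The array probe named Mir362 does not say which form of the microRNA it reads.

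The largest differences included genes on which the samples of a group disagreed. Wdr86 was at 8.95 and 8.78 in control and 12.65 and 12.91 in STZ+MENS, 3.92 ± 0.62 higher, while its STZ samples were at 11.40 and 9.30. Rhox5, an X-linked homeobox gene, was at 13.23 in STZ+MENS sample 1 and 9.61 in sample 2. Tmem245 was at 7.76 in control sample 1 and 11.73 in control sample 2, which sets its difference of 3.28 ± 1.14. Cpb2, a plasma carboxypeptidase made by hepatocytes, was at 9.74 and 12.30 in STZ+MENS against 14.14 and 13.46 in control, and Camk2b, a calcium-dependent kinase subunit, was at 9.19 and 12.08 against 13.32 and 13.16. Dscc1 and Fam25c were 3.22 ± 0.63 and 3.07 ± 0.60 higher, both with STZ+MENS sample 1 the higher by over 1.

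Plasma proteins and transporters of the hepatocyte gave single genes rather than groups. Apob, the backbone of very low density lipoprotein, was at 17.31 and 17.26 in control, 14.21 and 15.84 in STZ+MENS and 17.43 and 16.85 in STZ, -2.26 ± 0.51, the 1 lower gene beside 4 higher ones among 21 measured apolipoprotein and lipid transport genes. The higher ones were 2 without control sample 1, and the lower ones 3 with either STZ+MENS sample left out. Among the 4 were Angptl8, an inhibitor of lipoprotein lipase, at 0.89 ± 0.19 and Apoc2, an activator of it, at 0.71 ± 0.20. In the bile acid list of 18 measured genes 3 were higher and 3 lower, each 1 to 5 over the left-out samples and 5 without STZ+MENS sample 2. Abcb11, the bile salt export pump, was at 14.47 and 14.70 in control and 13.21 and 13.65 in STZ+MENS, -1.15 ± 0.27, and Slc10a1, the uptake carrier NTCP, was at 12.40 and 12.94 in control and 14.21 and 13.43 in STZ+MENS, 1.15 ± 0.30. The second probe of Slc10a1 had the other sign, at -0.54. Cps1, the entry enzyme of the urea cycle, was -1.47 ± 0.48, with 2 higher and 2 lower among 11 measured urea cycle genes. By limma 0 of these were lower without control sample 1 or STZ+MENS sample 1, and 0 higher without control sample 2 or STZ+MENS sample 2. C9, a complement component, was at 16.25 and 16.27 in control and 14.19 and 15.12 in STZ+MENS, -1.60 ± 0.31, with 2 lower and 0 higher among 25 complement and coagulation genes at an unadjusted limma p under 0.05.

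Conjugation enzymes had 4 lower (21.1%) and 0 higher of 19 measured at an unadjusted limma p under 0.05, where 9.18% of all genes were lower, led by Ugt2b34 at -1.70 ± 0.36 and Sult1b1 at -0.97 ± 0.21. Amino acid catabolism had 3 higher and 1 lower of 22, the NRF2 list 2 higher and 3 lower of 20, the acute phase list 1 higher and 2 lower of 18, and ribosomal proteins 0 higher and 3 lower of 17 (unadjusted limma p). The NRF2 list had 0 higher and 1 lower (limma) with either control sample left out, and the acute phase list 0 and 0 without control sample 1, 1 and 1 without control sample 2 and 2 and 3 without STZ+MENS sample 2. Leaving out 1 of the 4 samples gave 1 to 6 lower members for amino acid catabolism, 1 to 5 for ribosomal proteins and 1 to 5 for the bile acid list, all 3 highest without STZ+MENS sample 2. Tubulin and actin genes had 2 higher and 0 lower of 14 (unadjusted limma p), with 0 higher without control sample 1 and 1 without control sample 2 or STZ+MENS sample 1. Genes biased to female liver had 2 higher and 1 lower of 12, and those biased to male liver 1 higher and 1 lower of 11. Without STZ+MENS sample 1 the first had 4 higher and the second 2 lower, and without STZ+MENS sample 2 the first had 3 lower and the second 2 higher. Without control sample 1 the first had 1 higher and the second 0 in both directions (limma), and without control sample 2 the first had 1 higher. Of 23 extracellular matrix genes 6 were lower (26.1%) and 0 higher (unadjusted limma p), with a median of -0.10. Fn1, fibronectin, was at 14.80 and 14.48 in control and 12.46 and 13.45 in STZ+MENS, -1.68 ± 0.40, and Col3a1, a fibrillar collagen, was -1.01 ± 0.19.

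Markers of other cell types were read beside these groups, since in whole liver fewer cells of a type and less RNA per cell cannot be told apart. The mean level of the hepatocyte markers was 17.81 to 17.84 in control and 17.16 to 17.43 in STZ+MENS. The median difference of these markers was only -0.11, and the lowest, Apob, was at -2.26. The 4 lower ones were 2 without control sample 1, and 2 of the 4 probes of Fga had the other sign, up to 0.44. Cholangiocyte markers had 2 of 10 higher (mean level 9.55 to 9.80 in control and 9.94 to 9.99 in STZ+MENS) and T and NK cell markers 2 of 11 higher (8.72 to 8.81 and 8.92 to 9.01), with 0 lower in both. Macrophage markers had 2 higher and 1 lower of 14, with mean levels of 11.40 to 11.75 in control and 11.26 to 11.97 in STZ+MENS. Ccr2 of recruited monocytes was 0.93 ± 0.19 higher, with its second probe at 0.50, and Adgre1, a marker of resident macrophages, was at -0.69 ± 0.18. Of the 14 macrophage differences 5 were below 0, with a median of 0.10. Relative to the control mean, the list mean was 0.18 and -0.18 in the controls and -0.32 and 0.39 in STZ+MENS samples 1 and 2. Stellate cell markers had 2 higher and 2 lower of 13, with Lrat, the retinol-esterifying enzyme of these cells, and Col3a1 the lower ones. Endothelial markers had 1 higher of 13, neutrophil markers 1 higher and 1 lower of 11, adipocyte markers 2 higher and 1 lower of 9, and mesothelial markers 1 lower of 8. Pancreas markers had 2 lower of 7, of which Cela1 was at 15.22 and 15.19 in control and 13.52 and 14.05 in STZ+MENS. With so few members, leaving out 1 sample moved most of these counts: over the 4 left-out samples the higher ones ran from 1 to 4 in cholangiocyte, 1 to 3 in macrophage, 0 to 2 in stellate and 0 to 2 in endothelial markers. Without STZ+MENS sample 1 they were 4 in cholangiocyte and, by limma, 0 in stellate and neutrophil markers, without STZ+MENS sample 2 also 0 in neutrophil markers, and without control sample 2 they were 0 in endothelial markers. Lower markers were 0 (limma) for macrophages without control sample 1, for neutrophils without control sample 2 or STZ+MENS sample 1, and for adipocytes with either control sample left out or STZ+MENS sample 2.

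B cell, erythroid and skeletal muscle markers had 0 members past an unadjusted limma p of 0.05 in either direction, of 7, 5 and 6 measured. Without STZ+MENS sample 1 the erythroid list had 1 higher and 2 lower, and without control sample 1 the B cell list had 1 higher. The erythroid mean was 9.58 to 10.64 in STZ+MENS and 10.46 to 10.69 in control, with sample 2 the lower. The share of these marker differences in the gene groups above was not tested.

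**Figure D5:**
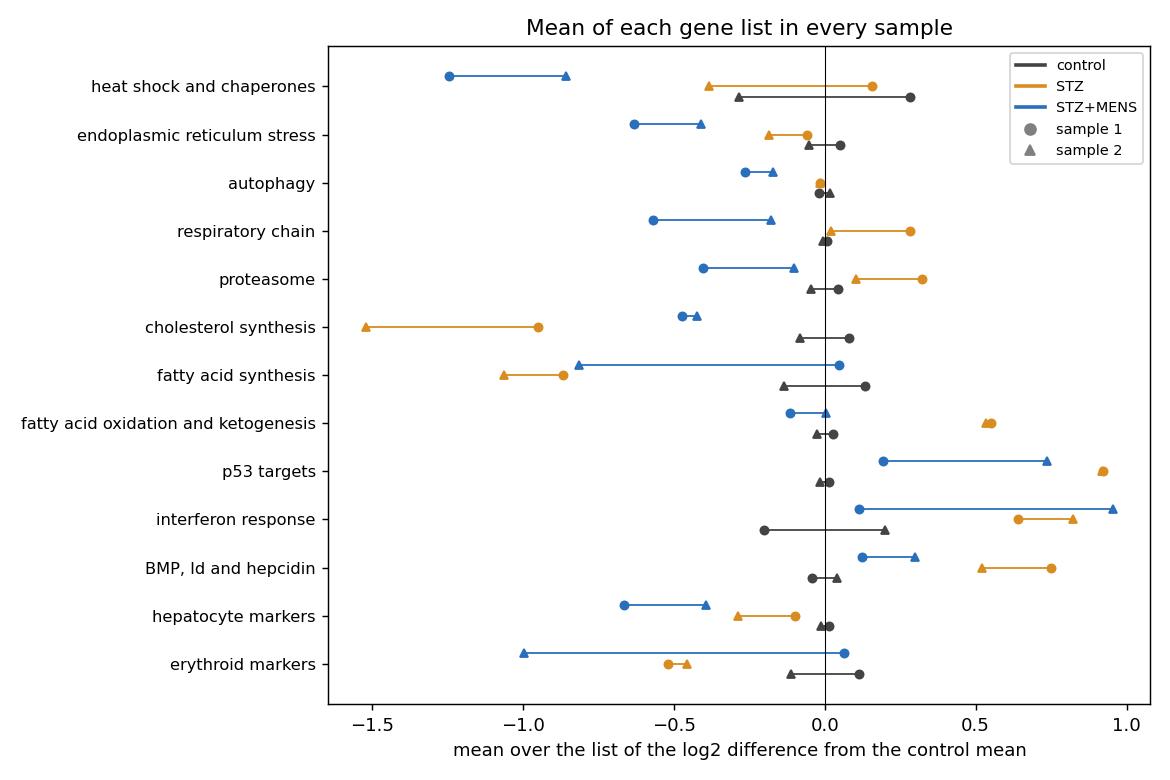
Mean over each list of the log2 difference from the control mean (x axis), in every sample, with control in grey, STZ in orange and STZ+MENS in blue, circles for sample 1 and triangles for sample 2. The chaperone list separates both STZ+MENS samples, at -1.24 and -0.86, from the other 4, whereas the fatty acid synthesis and interferon lists put STZ+MENS sample 1 near control and sample 2 near STZ.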

How the data were processed

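Total liver RNA was amplified, labelled with Cy5 and hybridised to single-colour Phalanx Mouse OneArray v2 arrays, per the labels' protocols. The deposited values are linear probe intensities; they have the form that background subtraction and quantile normalization leave, and how the authors did this is not given in the sources used here. The submitters' processing notes list limma 3.30.7 and give it no role.

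Intensities below 0 were set to 0, 50 was added and log2 was taken. Of 26423 probes 20377 had 1 gene symbol in the platform annotation and 6046 had none here; RefSeq's gene table of GRCm38.p6 gave current symbols (18213 current, 2126 by synonym, 38 kept). The brightest probe stood for each of 17742 genes, which chose between probes for 2278 of them. A mean intensity under 50 was found for 652 genes, and the number of arrays limits the precision. Each sample's 2 arrays were averaged, and limma 3.58.1 (lmFit and eBayes, R 4.3.3) was fitted to all 6 samples with 1 mean per group, leaving 3 residual degrees of freedom beside 3.19 prior ones. Tests were two-sided with Benjamini-Hochberg adjustment over all genes; ± gives the standard error of a difference. With 2 samples a side an exact permutation p is at least 0.33, so none was computed. The fit was tested on simulated data.

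The genes, lists and alternatives were chosen with earlier results of these data known. Genes were named by rule: per direction the 12 of smallest p and the 6 of largest difference, among genes whose 4 control and 4 STZ+MENS arrays did not overlap, whose arrays of 1 sample lay under 1 apart, with an intensity of at least 200 in the higher group; a fixed metabolic panel; and up to 4 members per direction of each list, with its defining members. Lists are described by counts and medians, with no set test. Panel or list genes that were not measured are not analysed here. Promoter sequences come from RefSeq windows. The labels do not say whether the sample numbers pair the samples, and the main fit treated them as unpaired. Alternatives changed the offset, the probe rule, filters, arrays, samples, prior, normalization and block.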

Additional observations from a re-analysis of the deposited data

How the results depend on the processing

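The adjusted-p count of 1 gene (limma) was small under most settings: 2 with an offset of 10, 0 with an offset of 200, 0 without the genes whose arrays disagreed, 3 on the first arrays and 0 on the second arrays alone, 2 with control and STZ+MENS samples only, and 0 to 12 when each sample was left out in turn. Beside these counts of 0, 1724 genes were higher and 1638 lower at an unadjusted p under 0.05 with the offset of 200, 1571 and 1640 without the discordant genes, and 1278 and 1454 on the second arrays. With all 12 arrays and the sample as a random block (correlation 0.48) it was 1336, a fit to 12 arrays in place of 6 sample means. Arrays of 1 sample are not replicates of a group, so this larger count does not rest on more samples. The sample titles share their numbers between control and STZ+MENS but not with STZ. Deviations of same-numbered control and STZ+MENS samples from their group means correlated at -0.03 over genes. With 2 samples a group this single correlation cannot decide whether the numbers pair the samples. A replicate block gave 5 genes with these groups alone and 1 with all 6 samples.

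Leaving out each sample in turn gave 991 to 1716 genes higher and 812 to 2003 lower at an unadjusted p under 0.05, and 482 to 1039 genes at 2-fold or more. A cyclic loess step moved the median of all genes from 0.02 to 0.01. The share of lower genes among those 2-fold apart was 40.0% without control sample 1 and 47.5% without STZ+MENS sample 1. Of the 59 genes named by rule or panel, those past an unadjusted p of 0.05 kept their direction in all 19 settings. In each of these genes the control and STZ+MENS arrays did not overlap, which the naming rule required. Leaving out samples, arrays or genes, or changing the offset or prior, could therefore not turn their direction. The kept direction is thus mostly a result of the choice of genes and does not measure how stable they are. With 2 samples a group, differences within the spread of the samples were not detectable.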
